A study of Mus musculus with 21 samples.

Results

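The insulin-like growth factor (IGF) family was examined as 10 genes, the ligands Igf1 and Igf2, the receptors Igf1r and Igf2r, and the binding proteins Igfbp2 to Igfbp7, out of 22180 genes measured. All 10 were present on the array with 1 probe set each. The family was chosen by the measured values of Igfbp5, which was among the lowest genes in Py8119 against Py117 tumours, so the comparison of Py8119 with Py117 tumours is described here without a test for any of them. For the same reason Igfbp5 was tested only between the cultures, which that choice did not use.

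IGF1 and IGF2 are secreted growth factors that signal through the receptor tyrosine kinase IGF1R, which drives growth and survival through the PI3K and MAPK pathways. IGF2R, the cation-independent mannose 6-phosphate receptor, takes up IGF2 for degradation and carries lysosomal enzymes. The binding proteins hold IGFs in the extracellular space, can limit or prolong their access to the receptor, and are cut by secreted proteases. In the mammary gland, local IGF1 from stroma supports duct growth, and IGFBP5 rises during involution after lactation.

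Py117 and Py8119 are mouse mammary carcinoma lines, described in the labels as clones, from MMTV-PyMT animals, in which a mammary tumour virus promoter drives the polyomavirus middle T oncogene in mammary epithelium. RNA was hybridised to Affymetrix whole-transcript arrays from untreated Py117 cultures (3 arrays), Py8119 cultures (3), Py117 tumours (5), Py8119 tumours (5) and mixed tumours grown from both lines implanted at 1:1 (5). Cells were kept in Ham's F12K medium with 5% serum, and tumours grew from 1000000 cells, suspended in equal parts of PBS and matrigel, placed in mammary fat pad 4. Tumours were not irradiated, although they were collected on the day when radiation would have been given. The age, sex and strain of the host mice were not given in the sources used here. Tumour arrays hold RNA of both cancer and host cells.

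The deposited values were log2 signals, and array medians lay between 5.24 and 5.53. A signal of 5.31, the 95th percentile of 1394 olfactory and vomeronasal receptor genes, served as the background level. Of 8 epithelial markers, 7 were above background in Py117 cultures and all 8 in Py117 tumours. In Py8119 cultures and tumours Epcam, Esrp1, Krt19 and Cldn4 were at or under background, whereas Cdh1, Cldn3 and the keratins Krt8 and Krt18 were above it. In a bulk sample, fewer cells of a type and less RNA per cell cannot be told apart.

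**Figure D1:**
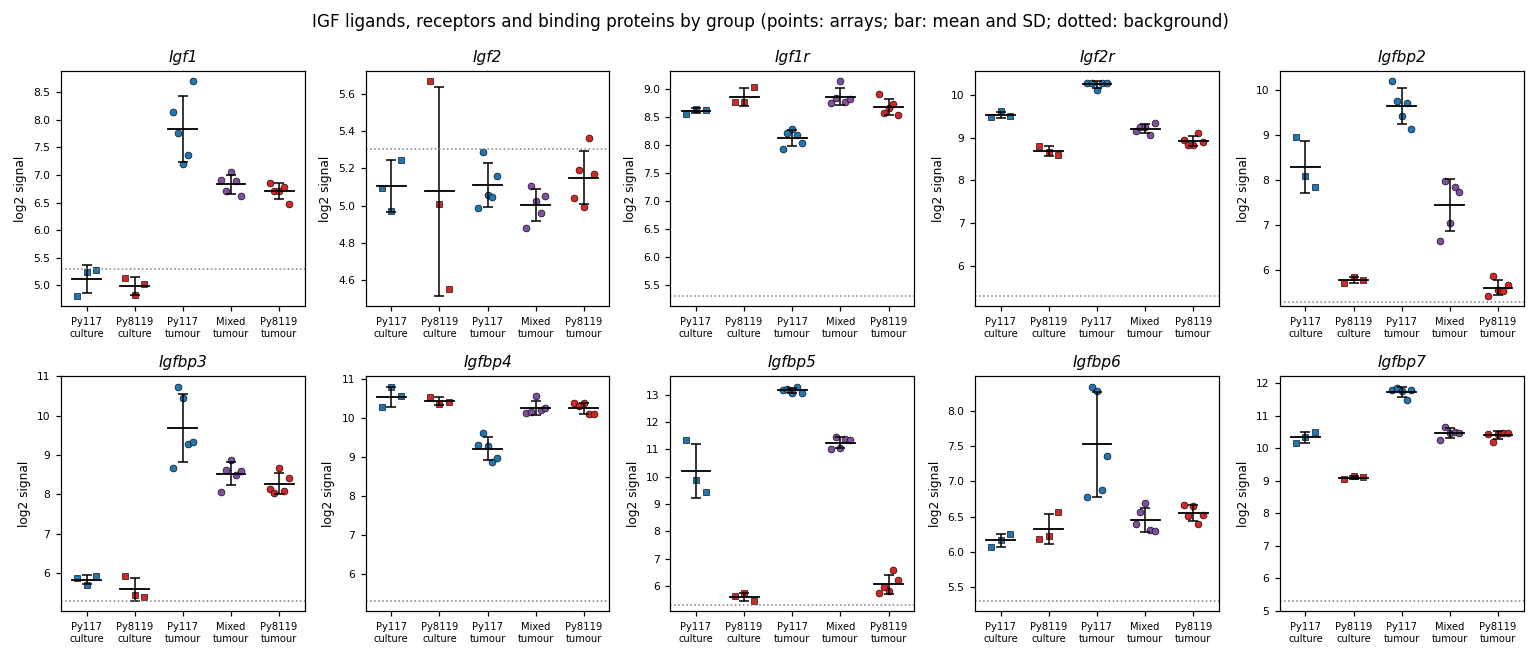
Log2 signal of the 10 genes in the 5 groups, with each array as a point, the group mean and SD as a bar, and the background of 5.31 as a dotted line. Each panel has its own range. Igfbp5 ran from 13.04 to 13.29 in Py117 tumours and from 5.72 to 6.59 in Py8119 tumours, and Igf2 stayed near background in every group.

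Igfbp5, which encodes a binding protein that also attaches to extracellular matrix, was high in Py117 cells and close to background in Py8119 cells. In Py117 tumours its log2 signal was 13.16, 13.21, 13.04, 13.29 and 13.06 (probe set 17224180). In Py8119 tumours it was 5.72, 5.97, 5.82, 6.59 and 6.22. The groups did not overlap, and the means differed by -7.09 ± 0.14 (SE, n = 5 and 5), which is 136-fold. This is the difference for which the family was chosen. The Py117 tumour values lay close to the highest signal on any array, 13.79, and the Py8119 values close to background, and either limit could compress the difference.

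The independent comparison of the cultures gave the same direction. Igfbp5 was 11.34, 9.86 and 9.43 in Py117 cultures and 5.62, 5.72 and 5.45 in Py8119 cultures. The lowest Py117 culture was far above the highest Py8119 culture. The difference was -4.61 ± 0.44 (24.5-fold lower in Py8119, adjusted p = 0.000337, n = 3 and 3). Py117 cultures were themselves spread (SD 1.00), with culture 1 above the others, and without culture 1 the difference was -4.05 (adjusted p = 0.000104).

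Igfbp2, whose product prefers IGF2 and carries an integrin-binding motif, followed Igfbp5 most closely within the family. It lies next to Igfbp5 on chromosome 1, with no protein-coding gene between them in the RefSeq annotation of GRCm38.p6. In culture it was 8.95, 8.10 and 7.85 in Py117 cells and 5.73, 5.84 and 5.79 in Py8119 cells (probe set 17214106). The Py8119 values sat just above background. The cultures did not overlap, and Igfbp2 was 5.70-fold lower in Py8119 cells (-2.51 ± 0.26, adjusted p = 0.000511). Py117 culture 1 had the highest value for both Igfbp2 and Igfbp5.

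In tumours Igfbp2 was 10.19, 9.76, 9.41, 9.72 and 9.13 for Py117 and 5.44, 5.87, 5.56, 5.53 and 5.66 for Py8119. The difference was -4.03 ± 0.23, or 16.3-fold, with no overlap. Over all 21 arrays the Pearson correlation of Igfbp2 with Igfbp5 was 0.93, which placed it at rank 16 among all genes, counting Igfbp5 itself. Both genes take their values from the same arrays, and the arrays fall into the same 5 groups, so this is a description and not a test. The 5 genes outside the family with the closest pattern were Boc (r = 0.97), Lcn2 (0.95), Enpp3 (0.95), Kcnma1 (0.95) and Stk26 (0.95), each over 21 arrays. Predicted genes, small RNA genes and olfactory or vomeronasal receptor genes were left out of that choice of 5. Boc, which encodes a cell-surface co-receptor of hedgehog ligands, had mean log2 signals of 11.38 in Py117, 8.98 in mixed and 6.45 in Py8119 tumours. Kcnma1, which encodes a calcium-activated potassium channel, was at 13.38, 13.44 and 6.13 in the same groups. The values of 13.38 and 13.44 lie near the highest signal of the arrays, so Kcnma1 in Py117 and mixed tumours cannot be compared closely. Lcn2, which encodes the iron-siderophore carrier lipocalin 2, was at 12.68, 11.11 and 6.82.

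Because Igfbp2 and Igfbp5 are neighbours that were both lower in Py8119 cells, the 250 bases before their annotated starts are shown, from RefSeq on GRCm38.p6. Capitals mark matches on either strand to TATTTAA, an AT-rich box, or GGGCGG, the letters of a GC box. A TATA box (TATAAA) and a CCAAT box were searched too, and all of these motifs were chosen after the sequences were seen. Igfbp5 is on the minus strand of chr1:72874866-72875115. Igfbp2 is on the plus strand of chr1:72824230-72824479, the first of its 2 annotated starts.
Igfbp5: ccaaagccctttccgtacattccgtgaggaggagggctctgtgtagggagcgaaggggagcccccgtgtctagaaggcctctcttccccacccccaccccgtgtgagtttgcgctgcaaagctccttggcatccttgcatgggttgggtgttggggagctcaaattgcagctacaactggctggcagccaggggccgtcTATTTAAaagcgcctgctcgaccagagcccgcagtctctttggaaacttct
Igfbp2: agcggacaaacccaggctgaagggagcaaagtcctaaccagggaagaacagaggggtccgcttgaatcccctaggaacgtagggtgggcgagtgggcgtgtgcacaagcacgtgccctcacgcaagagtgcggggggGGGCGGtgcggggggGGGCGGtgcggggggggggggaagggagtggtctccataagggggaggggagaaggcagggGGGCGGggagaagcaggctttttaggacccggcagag
The Igfbp5 window held 1 TATTTAA, which begins 51 bases before the start, and none of the other motifs. The Igfbp2 window held 3 GGGCGG matches and none of the others. Its second window held no match to any of them. Of 32851 promoter windows of this length, 4.18% held TATTTAA, 12.4% TATAAA, 32.7% GGGCGG and 33.8% CCAAT, so these letters are shared with many genes. The data give no measure of binding at either window.

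Igfbp7, which encodes a secreted protein of vessel walls and stroma that binds IGFs weakly, was the third binding protein lower in Py8119 cultures. It was 10.15, 10.35 and 10.51 in Py117 and 9.06, 9.13 and 9.10 in Py8119 cultures (probe set 17449084). The cultures did not overlap (-1.24 ± 0.11, 2.36-fold, adjusted p = 0.000267). Igf2r differed in the same direction, from 9.49, 9.62 and 9.50 in Py117 to 8.81, 8.66 and 8.59 in Py8119 cultures (probe set 17340845). The cultures were again separate (-0.85 ± 0.10, 1.80-fold, adjusted p = 0.000900).

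These 4 genes, Igfbp5, Igfbp2, Igfbp7 and Igf2r, were the members called lower among 10 in culture at adjusted p 0.05, and 12.3% of all genes were called lower there. The cultures did not overlap for 5 of 10 members, beside 42% of all genes. By limma no member was called higher, against 14.5% of all genes, and 0 were higher at an unadjusted p under 0.05. The median difference of the 10 was -0.19, beside -0.01 over all genes. Igf1r, the signalling receptor, was 8.55, 8.64 and 8.62 in Py117 and 8.75, 8.77 and 9.03 in Py8119 cultures (probe set 17479099). These did not overlap, but the difference of 0.25 ± 0.11 missed the threshold (adjusted p = 0.143), and it passed with an intensity trend and robust prior (adjusted p = 0.0431). Igfbp4 (-0.11 ± 0.14), Igfbp6 (0.16 ± 0.13) and Igfbp3 (-0.25 ± 0.16) overlapped between the cultures and did not pass. Igfbp3 passed without Py8119 culture 1 (-0.42, adjusted p = 0.0490).

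Both ligands were at background in culture. Igf1 was 4.82, 5.25 and 5.28 in Py117 and 5.14, 4.82 and 5.02 in Py8119 cultures (probe set 17236288), and no value exceeded 5.31. Igf2 had group means from 5.00 to 5.15 in all 5 groups, and 2 of 21 arrays exceeded background, Py8119 culture 1 (5.67) and Py8119 tumour 4 (5.36). No fold is given for Igf2, since all of its group means were at background.

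**Figure D2:**
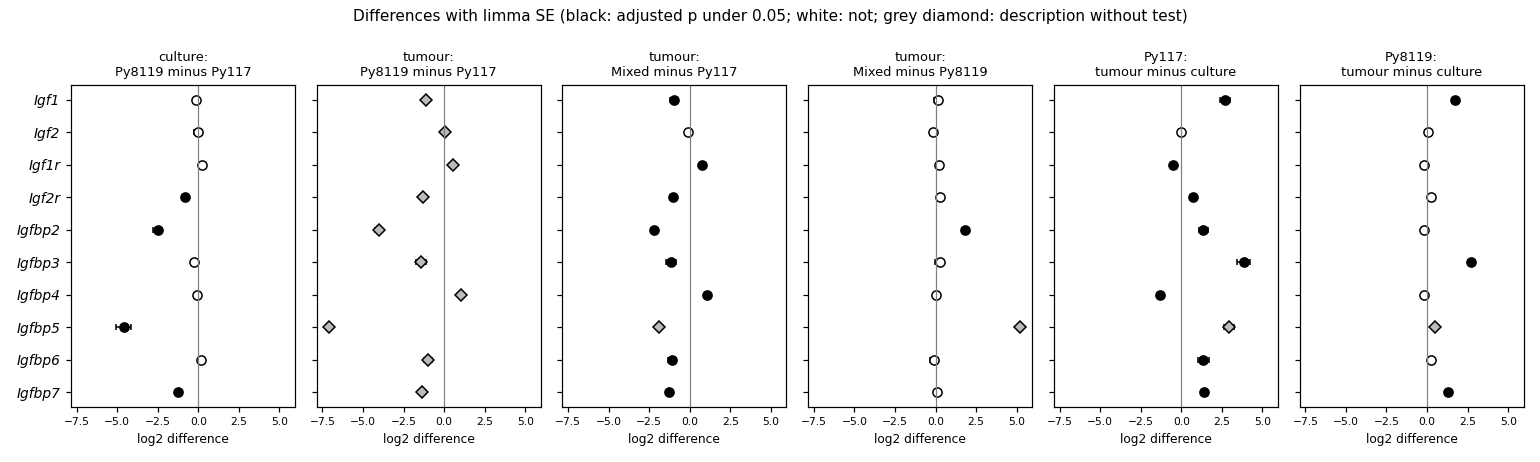
Log2 differences of the 10 genes in 6 comparisons, with the limma SE as a bar. Filled circles passed adjusted p 0.05, open circles did not, and grey diamonds are descriptions without a test. Igfbp5 lies far to the left in culture (-4.61) and Igf1r and Igfbp4 lie to the right for mixed against Py117 tumours (0.74 and 1.05).

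Igf1 was above background in every tumour, and it was higher in Py117 tumours. Its signal was 8.13, 7.76, 7.20, 7.36 and 8.69 in Py117 tumours, 6.90, 6.71, 7.05, 6.89 and 6.61 in mixed tumours, and 6.85, 6.71, 6.70, 6.79 and 6.48 in Py8119 tumours. The lowest Py117 tumour lay above the highest tumour of both other groups, whereas mixed and Py8119 tumours overlapped. Igf1 was lower in mixed than in Py117 tumours (-1.0 ± 0.20, adjusted p = 0.000817). Mixed and Py8119 tumours differed by 0.13 ± 0.20 (adjusted p = 0.832).

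The Py117 tumours were unequal in fat markers, and Igf1 is given beside them. The log2 of the summed signal of 7 adipocyte markers was 12.05, 8.88, 8.95, 11.09 and 12.19 in Py117 tumours 1 to 5. It ranged from 8.75 to 9.81 in mixed and from 8.56 to 9.71 in Py8119 tumours, where Adipoq and Lep were at or under background. Of the 7 markers, 6 were lower in mixed than in Py117 tumours. Tumours 5 and 1 had the highest values for both Igf1 and fat markers, while tumour 2 had the third highest Igf1 with the lowest fat markers. Fitted with each tumour's adipocyte mean, the Igf1 difference was -0.61 (adjusted p = 0.0272). Without Py117 tumours 1, 4 and 5, an alternative chosen after the data were seen, it was -0.65 (adjusted p = 0.00413). All 8 fibroblast markers were lower in mixed than in Py117 tumours (below), and their part in the Igf1 result was not tested. Macrophages are another source of Igf1 in tissue, and 5 of 8 macrophage markers were higher and 1 was lower in mixed than in Py117 tumours. The summed log2 macrophage signal ran from 13.14 to 13.53 in Py117, 13.61 to 13.97 in mixed and 13.61 to 14.02 in Py8119 tumours, and its part in the Igf1 result was not tested.

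The receptors differed in opposite directions. Igf1r was 7.92, 8.21, 8.27, 8.17 and 8.03 in Py117 tumours and 8.75, 8.82, 9.13, 8.77 and 8.81 in mixed tumours, without overlap. It was 1.67-fold higher in mixed tumours (0.74 ± 0.10, adjusted p = 1.35e-05). In Py8119 tumours it was 8.90, 8.56, 8.65, 8.72 and 8.53, which overlapped the mixed tumours (mixed minus Py8119 0.19 ± 0.10, adjusted p = 0.442). The order of group means was Py117 tumours (8.12), Py117 cultures (8.60), Py8119 tumours (8.67), Py8119 cultures (8.85) and mixed tumours (8.86). Of these neighbours, only the first pair did not overlap.

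Igf2r ran the other way. It was 10.29, 10.28, 10.12, 10.27 and 10.27 in Py117 tumours, 9.17, 9.24, 9.26, 9.07 and 9.33 in mixed tumours and 8.94, 8.82, 8.83, 9.12 and 8.90 in Py8119 tumours. Mixed tumours were 2.04-fold lower than Py117 tumours (-1.03 ± 0.08, adjusted p = 2.40e-08). Mixed and Py8119 tumours overlapped in 1 array and differed by 0.29 ± 0.08 (adjusted p = 0.0893). That difference passed without Py8119 tumour 4 (0.34, adjusted p = 0.0420).

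Igfbp4, a binding protein that inhibits IGF action until the protease PAPP-A cuts it, was the binding protein with the opposite pattern. It was 9.29, 9.61, 9.28, 8.88 and 8.98 in Py117 tumours and 10.12, 10.15, 10.56, 10.21 and 10.26 in mixed tumours (probe set 17256264). The groups were separate, and Igfbp4 was 2.07-fold higher in mixed tumours (1.05 ± 0.13, adjusted p = 4.17e-06). Py8119 tumours, at 10.37, 10.30, 10.38, 10.10 and 10.09, overlapped the mixed tumours (mixed minus Py8119 0.01 ± 0.13, adjusted p = 0.978).

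Igfbp3, the main carrier of IGFs in serum, and Igfbp6, which prefers IGF2, were high in some Py117 tumours. Igfbp3 was 8.68, 10.74, 10.44, 9.27 and 9.34 in Py117 tumours, a range of 4.15-fold (probe set 17260474). It was 8.07, 8.62, 8.88, 8.48 and 8.61 in mixed and 8.15, 8.05, 8.66, 8.10 and 8.42 in Py8119 tumours. Py117 and mixed tumours overlapped, and the means differed by -1.16 ± 0.30 (adjusted p = 0.00451). Igfbp6 was 6.78, 8.35, 8.28, 6.88 and 7.36 in Py117 tumours and 6.40, 6.56, 6.70, 6.31 and 6.30 in mixed tumours (probe set 17315305). These did not overlap, and mixed tumours were lower by 1.08 on the log2 scale, or 2.11-fold (adjusted p = 0.00191).

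Py117 tumours 2 and 3 had the highest Igfbp3 and the highest Igfbp6, and they also had the highest fibroblast signal. The log2 of the summed signal of 8 fibroblast markers was 12.61, 13.72, 13.57, 13.01 and 13.04 in Py117 tumours 1 to 5. It ran from 11.61 to 12.33 in mixed and from 11.33 to 12.29 in Py8119 tumours. All 8 markers were above background in the 3 tumour groups, and all 8 were lower in mixed than in Py117 tumours. Leaving out Py117 tumours 1, 4 and 5, which had the highest adipocyte means, keeps only tumours 2 and 3. A larger difference for Igfbp3 and Igfbp6 follows from that choice and adds no evidence. The mixed minus Py117 differences were then -2.06 for Igfbp3 and -1.86 for Igfbp6. Fitted with each tumour's adipocyte mean, these were -1.95 and -1.68. Tumours 2 and 3 also had the lowest adipocyte means of the Py117 tumours (5.69 and 5.91). That fit therefore rests largely on the same split and is not a separate line of evidence. The part of fibroblast content in these differences was not tested.

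**Figure D3:**
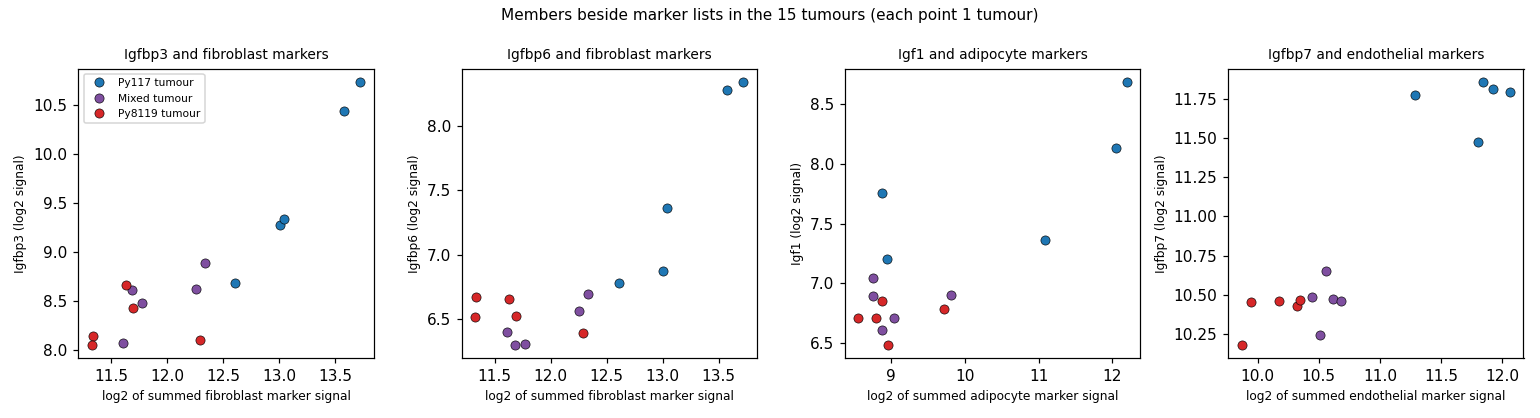
Log2 signal of Igfbp3, Igfbp6, Igf1 and Igfbp7 against the log2 of summed marker signals in the 15 tumours, 1 point a tumour. The 2 Py117 tumours with fibroblast sums of 13.57 and 13.72 are those with the highest Igfbp3 and Igfbp6, and the 5 Py117 tumours lie above all others for Igfbp7.

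Igfbp7 was 11.79, 11.86, 11.77, 11.47 and 11.81 in Py117 tumours, 10.25, 10.65, 10.47, 10.49 and 10.46 in mixed tumours and 10.45, 10.18, 10.43, 10.47 and 10.46 in Py8119 tumours. It was 2.42-fold lower in mixed than in Py117 tumours (-1.28 ± 0.10, adjusted p = 1.51e-08), and mixed and Py8119 tumours overlapped (0.07 ± 0.10, adjusted p = 0.810). Igfbp7 is abundant in vessels, and all 8 endothelial markers were lower in mixed than in Py117 tumours. Their summed log2 signal ran from 11.29 to 12.06 in Py117, 10.45 to 10.68 in mixed and 9.87 to 10.34 in Py8119 tumours. In culture 3 of the 8 endothelial markers were at or under background in Py117 and 4 in Py8119, and the others were above it. Igfbp7 was also lower in Py8119 cultures (above). The part of vessel content in the tumour difference was not tested.

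Between mixed and Py117 tumours, 6 of the 9 tested members were lower and 2 higher, while 16.9% of all genes were lower and 19.2% higher. The groups did not overlap for 7 of the 9, beside 24.8% of all genes. The counts were also 6 and 2 without Py117 tumours 1, 4 and 5, an alternative chosen after the data were seen. That choice keeps the Py117 tumours with the highest fibroblast signal, Igfbp3 and Igfbp6 (above). For Igfbp3 and Igfbp6, which are among the 6, the repeated call therefore adds no evidence. The share of all genes called under that choice is not given here. With all tumours kept, the median difference of the 9 was -1.03, beside -0.03 over all genes. Between Py8119 and Py117 tumours, the contrast used to choose the family, 7 of 10 were lower and 2 higher at adjusted p 0.05, beside 16.5% and 21% of all genes, and the groups did not overlap for 9, beside 27.6%. Nothing is read from those counts. Both comparisons and the next share tumour arrays, so each gene's values above are the same arrays seen from different sides.

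Between mixed and Py8119 tumours, Igfbp2 was the member that passed. It was 6.64, 7.98, 7.04, 7.86 and 7.73 in mixed tumours, all above every Py8119 tumour and all under every Py117 tumour. Igfbp2 was 3.57-fold higher in mixed than in Py8119 tumours (1.84 ± 0.23, adjusted p = 0.000112) and 4.57-fold lower than in Py117 tumours (-2.19 ± 0.23, adjusted p = 6.70e-07). This was 1 of 9 tested members higher, and 1.61% of all genes were higher. It was also the only one of the 9 whose groups did not overlap, beside 5.54% of all genes. By limma 0 of 9 were lower, against 0.162% of all genes, and 0 were lower at an unadjusted p under 0.05. Igfbp5, described without a test, was 11.01, 11.43, 11.05, 11.38 and 11.35 in mixed tumours, 5.18 ± 0.14 above Py8119 and 1.91 ± 0.14 below Py117 tumours on the log2 scale. Mixed tumours 1 and 3 were lowest for both Igfbp2 and Igfbp5. Their epithelial marker sums were the lowest and the highest of the mixed tumours, 10.97 and 11.41 on the log2 scale.

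The place of each mixed tumour between the parental means was computed on the linear scale, from 0% at the Py117 mean to 100% at the Py8119 mean, for the 7 members whose parental means differed by at least 1. Igfbp5 lay at 78.0, 70.2, 77.3, 71.3 and 72.0%, and the mixed mean was 26.8% of the mean Py117 signal. Igfbp2 lay at 93.5, 73.8, 89.3, 76.4 and 78.9%. The median place was 83.7% for Igf2r, 88.2% for Igfbp3, 90.02% for Igf1, 93.8% for Igfbp4 and 96.8% for Igfbp7. Over the 1960 genes with such a parental difference the median was 86.5%, with quartiles of 77.8 and 93.7%. Igfbp5 had the lowest median place of the 7 members, and no test was made. Its Py117 tumour signal lies near the highest signal of the arrays, and compression there would lower both its place and the gap between mixed and Py117 tumours. On the log2 scale its median place was 25.5%, since that scale weights low signals more.

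**Figure D4:**
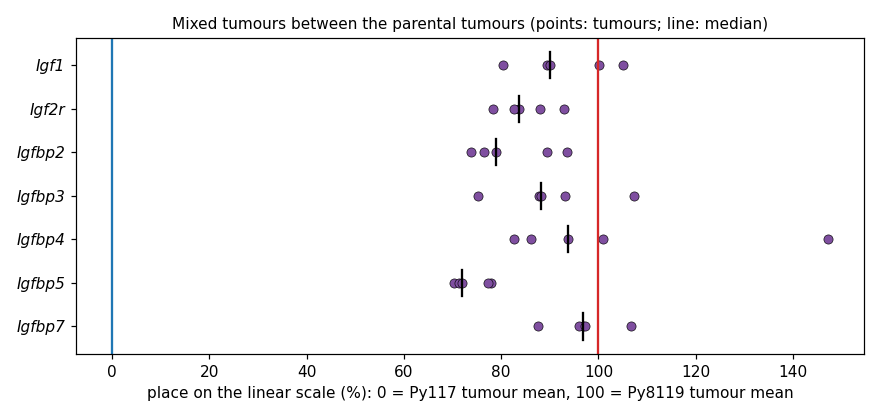
Place of the 5 mixed tumours between the Py117 mean (0%, blue line) and the Py8119 mean (100%, red line) on the linear scale, for 7 members, with each tumour as a point and the median as a black line. Igfbp5 points lie between 70.2 and 78.0%, left of those of Igfbp7 (87.6 to 107%), and 1 mixed tumour reached 147% for Igfbp4.

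The comparison of tumours with cultures of the same line showed which members differed between these settings. Tumours hold host cells and the cancer cells also grew under other conditions, and the 2 cannot be told apart here. In Py117, 6 of 9 tested members were higher in tumours and 2 lower, beside 12.4% and 18.3% of all genes. The groups did not overlap for 8 of the 9, beside 35.6% of all genes. With arrays centred on their median, 26.3% of the called genes were higher in place of 40.5%, and the median of all genes moved by -0.12. Igfbp3 was 14.5-fold higher (3.86 ± 0.40, adjusted p = 4.25e-05), from 5.88, 5.71 and 5.93 in culture. Igf1, not above background on any culture array, was at least 5.75-fold higher (adjusted p = 6.17e-05), taking background as the floor. Igfbp7 (1.41 ± 0.13), Igfbp6 (1.36 ± 0.35), Igfbp2 (1.34 ± 0.27) and Igf2r (0.71 ± 0.10) were also higher. Igfbp4 was 2.52-fold lower in tumours (-1.33 ± 0.18, adjusted p = 0.000244), from 10.27, 10.78 and 10.57 in culture, and Igf1r was lower (-0.48 ± 0.11, adjusted p = 0.00750). The Igf1r call was lost without Py117 tumours 1, 4 and 5 (adjusted p = 0.0672). Igfbp5 differed by 2.94 ± 0.33 without a test.

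In Py8119, 3 of 9 tested members were higher in tumours, beside 16.3% of all genes, and by limma 0 were lower, beside 20.9%, with 0 lower at an unadjusted p under 0.05. The groups did not overlap for 4 of the 9, beside 38.2% of all genes. With arrays centred on their median 3 were lower, Igf1r, Igfbp2 and Igfbp4. That centring moved the median of all genes by -0.17 and left 23.4% of called genes higher in place of 43.8%. Igfbp3 was 6.44-fold higher (2.69 ± 0.17, adjusted p = 1.68e-06), from 5.92, 5.45 and 5.40 in culture. Igf1, again not above background in culture, was at least 2.64-fold higher (adjusted p = 2.09e-06), and Igfbp7 by 1.30 ± 0.09 (adjusted p = 4.16e-06). Igfbp3, Igf1 and Igfbp7 were thus higher in tumours of both lines. Igf2r differed by 0.24 ± 0.10 (adjusted p = 0.0900), and it passed under 4 alternatives (adjusted p = 0.0266 to 0.0424), among them leaving out low genes. Igfbp2 stayed low (-0.17 ± 0.11, adjusted p = 0.243), and quantile normalization gave -0.41 (adjusted p = 0.0164). Igfbp5 differed by 0.47 ± 0.18 without a test.

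The difference between the lines in their tumour minus culture values was tested directly. It contains the Py8119 minus Py117 tumour difference used to choose the family, so these tests are not independent of that choice. Of 9 tested members, 1 was higher and 2 lower, beside 7.5% and 5.99% of all genes. Igfbp4 was lower in Py117 tumours than cultures while Py8119 differed by -0.19 ± 0.10, and the interaction was 1.15 ± 0.22 (adjusted p = 0.00138). Igfbp2 was higher in tumours for Py117, with an interaction of -1.52 ± 0.32 (adjusted p = 0.00321). The Igf2r interaction was -0.47 ± 0.13 (adjusted p = 0.0233). It did not pass when Py117 culture 1, Py117 culture 3 or Py8119 culture 1 was dropped (adjusted p = 0.0635, 0.0608 and 0.0703). Igf1 (-1.0 ± 0.34, adjusted p = 0.0663), Igfbp6 (-1.14 ± 0.40, adjusted p = 0.0738) and Igfbp3 (-1.17 ± 0.48, adjusted p = 0.127) did not pass. Igf1, whose culture values were not above background, passed under other settings, for example after quantile normalization (-1.16, adjusted p = 0.0285) or without Py117 tumour 3 (-1.16, adjusted p = 0.0169). Igfbp3 and Igfbp6 passed without Py117 tumour 1 (adjusted p = 0.0272 and 0.0218), which had the lowest Py117 tumour value of both. Igfbp6 also passed without Py117 tumour 4 (adjusted p = 0.0326), with low genes left out (adjusted p = 0.0459) and with 1 fit of all arrays (adjusted p = 0.0390). Leaving out Py117 tumours 1, 4 and 5 keeps only tumours 2 and 3, which had the highest Igfbp3 and Igfbp6. The interactions were then -2.06 and -1.92, and their larger size follows from that choice.

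Of 54 further genes listed for the pathway, 48 were measured. In culture 8 were higher and 19 lower in Py8119 cells, beside 14.5% and 12.3% of all genes, with a median difference of -0.24 beside -0.01. Between mixed and Py117 tumours 9 were higher and 18 lower, beside 19.2% and 16.9% of all genes, with a median of -0.18 beside -0.03. Between mixed and Py8119 tumours limma called 0 of 48 in either direction, beside 1.61% of all genes higher and 0.162% lower. At an unadjusted p under 0.05, 5 were higher and 2 lower, and the share of all genes at that level is not given here. Between Py8119 and Py117 tumours, the contrast used to choose the family, 9 were higher and 18 lower, beside 21% and 16.5% of all genes, and nothing is read from that count. The shares of all genes given here are those to set beside the counts of each group of pathway genes that follows, and with 5 to 12 genes a group each count is a description.

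Among 12 genes listed as possible proteases of binding proteins or their inhibitors, 1 was higher and 7 lower in Py8119 cultures, beside 14.5% and 12.3% of all genes. Whether each listed protease cuts a binding protein was not examined. Htra1, a secreted serine protease that cleaves IGFBP5 among other substrates, was the one higher in Py8119 cultures (0.98 ± 0.12, adjusted p = 0.00116). In tumours Htra1 ran from 7.58 to 8.82 for Py117 (median 7.62), from 10.86 to 11.09 for mixed (median 11.01) and from 10.77 to 11.09 for Py8119 (median 11.03). Mixed tumours were 7.62-fold higher than Py117 tumours without overlap (2.93 ± 0.21, adjusted p = 5.81e-09). Pappa, which encodes the IGFBP4 and IGFBP5 protease PAPP-A, differed by -0.98 ± 0.22 in mixed against Py117 tumours (adjusted p = 0.00167), with overlap. Its range was 6.61 to 8.24 in Py117, 6.27 to 6.81 in mixed and 5.53 to 6.15 in Py8119 tumours. The metalloproteases Adam12 (-2.76 ± 0.24, adjusted p = 0.000229) and Adamts1 (-2.12 ± 0.13, adjusted p = 4.13e-05) were lower in Py8119 cultures. Between mixed and Py117 tumours the list had 2 higher and 4 lower, beside 19.2% and 16.9% of all genes, with the serine protease Prss23 at 1.26 ± 0.21 and Tmprss2 at -1.25 ± 0.20.

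Among 12 receptor substrates and adaptors, 1 was higher and 6 lower in Py8119 cultures (all genes, 14.5% and 12.3%). In mixed against Py117 tumours limma called 0 higher and 6 lower (all genes, 19.2% and 16.9%), with 0 higher at an unadjusted p under 0.05. Socs2, a feedback inhibitor of growth hormone signalling, was lower in Py8119 cultures (-3.65 ± 0.21, adjusted p = 3.12e-05), where 1 of 3 arrays was above background. It was also lower in mixed tumours (-1.70 ± 0.22, adjusted p = 1.01e-05). Grb14, an adaptor that inhibits the insulin receptor, was not above background on any Py8119 culture array and was at least 2.17-fold lower there than in Py117 cultures (adjusted p = 0.000664), taking background as the floor. Grb10, a related inhibitory adaptor, was at background in both cultures and 3.41-fold lower in mixed than in Py117 tumours (-1.77 ± 0.24, adjusted p = 1.09e-05). Irs2, a docking protein of the receptors, was higher in Py8119 cultures (1.07 ± 0.13, adjusted p = 0.00116).

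In the PI3K, AKT and FOXO branch, 4 of 12 were higher and 3 lower in Py8119 cultures (all genes, 14.5% and 12.3%). In mixed against Py117 tumours 5 were higher and 4 lower (all genes, 19.2% and 16.9%). The regulatory subunits of PI3K went opposite ways, with Pik3r1 lower (-1.43 ± 0.13, adjusted p = 0.000221) and Pik3r2 higher (0.96 ± 0.09, adjusted p = 0.000293) in Py8119 cultures. In mixed against Py117 tumours these were -1.17 ± 0.11 and 0.70 ± 0.09. Foxo1, a transcription factor held out of the nucleus by AKT, was lower in Py8119 cultures (-1.37 ± 0.12, adjusted p = 0.000231) and mixed tumours (-1.31 ± 0.11, adjusted p = 4.04e-08). The growth kinase Mtor was higher in both (0.69 ± 0.10 and 0.59 ± 0.13).

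Of 5 measured genes of IGF mRNA control and the growth hormone axis, 2 were higher and 2 lower in Py8119 cultures (all genes, 14.5% and 12.3%). In mixed against Py117 tumours 2 were higher and 3 lower (all genes, 19.2% and 16.9%). Igf2bp3, which encodes an oncofetal RNA-binding protein named for its binding of Igf2 mRNA, was 6.64-fold higher in Py8119 cultures (2.73 ± 0.10, adjusted p = 5.64e-06). It was also higher in mixed tumours (1.61 ± 0.11, adjusted p = 3.87e-09), although the group means of Igf2 were all at background. Ghr, the growth hormone receptor, was higher in Py8119 cultures (1.15 ± 0.12, adjusted p = 0.000476), and Stat5a, which transmits its signal, was lower (-1.89 ± 0.15, adjusted p = 0.000133), as was its close relative Stat5b (-0.46 ± 0.10, adjusted p = 0.0137). In mixed against Py117 tumours Stat5a was lower (-0.69 ± 0.10, adjusted p = 2.65e-05), Ghr was higher (0.45 ± 0.16, adjusted p = 0.0421) and Ncl, which encodes the nucleolar protein nucleolin, was lower (-0.51 ± 0.09, adjusted p = 0.000139). Of 7 measured relatives of the receptors and binding proteins, limma called 0 higher and 1 lower in each of these comparisons, with 0 higher at an unadjusted p under 0.05. The lower gene was Kazald1, a secreted protein with an IGF-binding domain (-0.75 ± 0.17 in culture, adjusted p = 0.0149, and -0.84 ± 0.13 in mixed tumours).

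**Figure D5:**
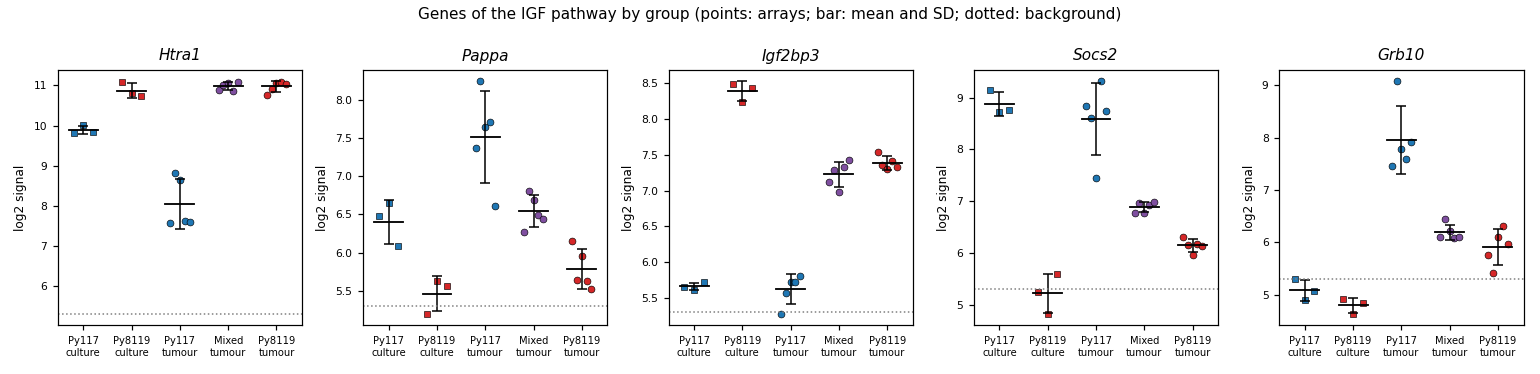
Log2 signal of Htra1, Pappa, Igf2bp3, Socs2 and Grb10 in the 5 groups, with arrays as points, the mean and SD as a bar and background as a dotted line. Panels have their own ranges. Htra1 and Igf2bp3 are higher in Py8119 and mixed than in Py117 samples, and Socs2 is lower.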

How the data were processed

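Gene expression was measured on 21 Affymetrix arrays. The deposited values are log2 signals, and the authors used RMA and limma, per the submitters' processing notes, with no version given. Array annotation, scan dates and batches were not given in the sources used here. Of 41345 probe sets, those with 1 gene symbol were kept, and the probe set of highest mean was taken for each of 22180 genes.

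Linear models in limma 3.58.1 (R 4.3.3) with moderated variances gave the tests, with Benjamini-Hochberg adjustment over all genes and a threshold of adjusted p 0.05. Cultures used 6 arrays, the tumour comparisons 1 fit of 15, each tumour minus culture comparison 8, and the interaction 16. No filter on low signals was used. Replicates are labelled biological, and nothing says that cultures were grown separately, so p-values measure the spread between arrays. The number of arrays limits precision.

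The members, lists and marker genes were chosen with earlier results of these data known. All members are named. Of each pathway list, up to 2 genes with the largest called difference in each direction were named for culture and both mixed comparisons. Also named were the 5 genes most correlated with Igfbp5, leaving out members and predicted, small RNA and receptor genes. Promoters came from RefSeq (GRCm38.p6), where all 10 members matched. The receptor background was chosen after the data were seen. The procedure was tested on simulated data. Figures used matplotlib 3.10.9. Alternatives are given in the closing section. A few listed pathway genes were not analysed here.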

Additional observations from a re-analysis of the deposited data

Results flagged for a closer look

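In 30 groups of 5 tumours examined (10 members in 3 groups), 4 had 1 tumour far from the others, and chance gives about 1 in 20. Mixed tumour 3 was highest for Igf1r (9.13, next 8.82). Py117 tumour 3 was lowest for Igf2r (10.12, next 10.27). Py117 tumour 4 and Py8119 tumour 2 were lowest for Igfbp7 in their groups (11.47, next 11.77, and 10.18, next 10.43).

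The tumour minus culture difference differed between the lines for 3 members by the interaction test of limma. That test contains the tumour contrast used to choose the family and is not independent of it. The interaction was 1.15 for Igfbp4 (adjusted p = 0.00138), -1.52 for Igfbp2 (adjusted p = 0.00321) and -0.47 for Igf2r (adjusted p = 0.0233). Igf2r did not pass when Py117 culture 1, Py117 culture 3 or Py8119 culture 1 was dropped (adjusted p = 0.0608 to 0.0703), or without Py117 tumours 1, 4 and 5 together (adjusted p = 0.0858).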

How the results depend on the processing

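No member's called difference changed sign under any alternative run. Counts of members called outside 1.5 times the main count were these. In culture 1 was higher with the trend and robust prior in place of 0. For mixed against Py8119 tumours 2 were higher with low genes left out in place of 1. For Py8119 tumours against culture 1 was lower with quantile normalization and 3 with median centring in place of 0. For the interaction 4 were lower with low genes left out or with 1 fit of all arrays, and 1 at adjusted p 0.01, in place of 2. For Py117 tumours against culture 1 was lower without Py117 tumours 1, 4 and 5, an alternative chosen after seeing the data, in place of 2. Leaving out single arrays gave 1 to 4 lower for the interaction and 1 to 2 higher for mixed against Py8119 tumours. The 4 lower without Py117 tumour 1 or 4 and the 1 lower without Py117 culture 1 or 3 or Py8119 culture 1 were the extremes. On the log2 scale the median place of mixed tumours was 75.8% for Igf2r, 47.4% for Igfbp2 and 25.5% for Igfbp5. The causes were not tested.

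Over all genes, adjusted p 0.01 left 3653 calls in culture in place of 5942, 224 in place of 394 for mixed against Py8119 tumours, 4495 in place of 6811 for Py117 tumours against culture and 1674 in place of 2992 for the interaction. Without Py117 tumour 3, 599 genes passed for mixed against Py8119 tumours in place of 394. Whether equal replicate numbers pair the samples was not settled. Deviations of same-numbered arrays correlated from -0.23 to 0.26 over all pairs of groups. Between the cultures they ran from 0.04 to 0.13, beside -0.10 to 0.07 for unequal numbers. Between mixed and Py8119 tumours they ran from -0.23 to -0.03, beside -0.16 to 0.16. With the replicate number as a block, 4 members were lower in culture, 6 lower and 2 higher for mixed against Py117 tumours, 1 higher for mixed against Py8119 tumours and 2 lower for the interaction, as without it. Signals at or near background limit Igf2 in all groups, Igf1 in both cultures, Igfbp3 in both cultures, and Igfbp2 and Igfbp5 in Py8119 cultures and tumours.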
